A study of Homo sapiens with 6 samples.

Results

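The clade B serpins SERPINB1 to SERPINB10 were examined in MIA-PaCa2 cells, an established human line from a pancreatic ductal adenocarcinoma (PDAC), after transfection with an siRNA against the long noncoding RNA H19. The 10 genes were found by their symbols in the deposited array table and made up 10 of 39261 probe sets with a gene name, each gene having 1 probe set. SERPINB9 was chosen by its lower signal on these same arrays, as 1 of the candidate genes of the study, so its difference is described here without a test. The other 9 genes were taken for the name of the clade. Expression was measured on 6 Clariom D arrays, on which short probes capture labelled copies made from both coding and noncoding RNAs. Of these, 3 came from cells transfected with the AllStars Negative Control siRNA (NC) and 3 from cells transfected with siH19-2, a FlexiTube siRNA to H19. Both groups were transfected with a lipofectamine reagent, and the labels name no other difference between them. The labels state 20 µg of siRNA, whereas the methods state 50 nM and RNA isolation after 24 h. Arrays of a further H19 siRNA were not analysed here, so a change that runs through H19 and a direct effect of siH19-2 on other transcripts cannot be told apart. The methods speak in general of independent experiments behind quantitative data, but do not state for the triplicate arrays whether they came from separate cultures. If they did not, p-values reflect spread among arrays alone, and this may be technical.

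Values were log2 signals that the authors had normalized between arrays, with a median of 6.16 on every array. The signal of H19 in siH19-2 was 81.3% of that in NC, and the groups did not overlap. Arrays correlated at 0.993 to 0.995 with arrays of their own group and at 0.991 to 0.993 with those of the other group. The first principal component held 34.2% of the variance and separated the groups, with NC from -16.9 to -13.6 and siH19-2 from 12.4 to 21.7. On the second, which held 19.7%, siH19-2 replicate 3 was at 21.1 and the other siH19-2 arrays were at -16.6 and -11.1. Across all named probe sets, 1032 were lower and 1035 higher in siH19-2 at an adjusted p under 0.05 from limma, which is 2.63% and 2.64% of those tested. When every array was shifted to make the actin gene ACTB equal, these counts were 4119 lower and 297 higher. The median log2 fold change of all probe sets then moved from 0.016 to -0.117. ACTB itself was higher in siH19-2 by 0.13, without overlap of the groups (adjusted p = 0.09 from limma). The shift therefore lowers every log2 fold change by this amount. The signal of VIM, the intermediate filament of mesenchymal cells, was 13.1 on the log2 scale in both groups. The epithelial surface marker EPCAM was at 4.52 in both and the epithelial cadherin CDH1 at 5.49 and 5.53. Both were dimmer than the median of all probe sets. Other markers of each kind went the other way. The epithelial keratins KRT8 (9.74 in NC and 9.63 in siH19-2), KRT18 (9.43 and 9.33), KRT19 (9.24 and 8.84) and KRT7 (6.99 and 6.95) were brighter. The mesenchymal cadherin CDH2 was dimmer (5.14 and 5.18), while S100A4 was brighter (10.4 and 10.2).

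Serpins trap their target proteases. The protease cuts a loop that is exposed on the serpin, the serpin folds this loop into its own body, and the protease stays bound to it in a distorted, inactive form. Serpins of clade B differ from most other serpins in that they lack a classical secretion signal and act mainly inside the cell, where they protect it from its own proteases or from proteases that enter from outside. SERPINB9, also called proteinase inhibitor 9, inhibits granzyme B, the protease that cytotoxic T cells and natural killer cells deliver into their targets. Cytotoxic lymphocytes produce SERPINB9 against their own granzyme B, and tumor cells that produce it can withstand this form of killing. The human genes lie in a pair of clusters, and by the reference annotation 3 of the 10 members are on chromosome 6 (SERPINB1, SERPINB6 and SERPINB9) and 7 on chromosome 18.

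The sequence before the start of transcription is shown for SERPINB9 and for SERPINB1, its relative in the same cluster and on the same strand, because the former differed most between the groups and the latter little. Both stretches hold the 250 bases before the start, were taken from RefSeq (build GRCh38.p14) and lie on the minus strand, at chr6:2903310-2903559 for SERPINB9 and at chr6:2841864-2842113 for SERPINB1. Capitals mark the motifs found on either strand among TATAA (TATA box), GGGCGG (GC box), CCAAT and TGANTCA (the AP-1 site).
SERPINB9: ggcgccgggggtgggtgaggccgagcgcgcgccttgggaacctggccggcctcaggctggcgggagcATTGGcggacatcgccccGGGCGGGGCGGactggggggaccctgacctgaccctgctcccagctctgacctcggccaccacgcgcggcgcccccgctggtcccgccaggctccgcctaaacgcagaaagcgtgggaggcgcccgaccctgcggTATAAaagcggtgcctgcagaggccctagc
SERPINB1: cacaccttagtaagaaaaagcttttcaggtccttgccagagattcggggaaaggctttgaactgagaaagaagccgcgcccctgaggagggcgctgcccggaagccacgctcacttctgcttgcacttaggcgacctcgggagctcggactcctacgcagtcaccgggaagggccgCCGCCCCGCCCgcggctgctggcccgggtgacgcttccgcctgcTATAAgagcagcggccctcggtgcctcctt

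In both genes a TATAA began 30 bases before the start. SERPINB9 held 2 overlapping GC boxes, which began 165 and 160 bases before the start, and 1 CCAAT on the opposite strand 183 bases before it. SERPINB1 also held 2 overlapping GC boxes, on the opposite strand and nearer to the start, at 74 and 69 bases before it, and no CCAAT. No AP-1 site was found in either window, which reached 50 bases past the start in the search. Among 35116 RefSeq windows of the same 300 bases, 20.4% held TATAA, 45% the GC box, 34.6% CCAAT and 7.71% the AP-1 site. Windows were found for 9 of the 10 members, without SERPINB10. SERPINB2, SERPINB5 and SERPINB8 each held at least 1 AP-1 site, as did 2 of the 3 windows of SERPINB7. These matches describe letters and no bound factor.

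For SERPINB9 (gene ID 5272) the NC arrays read 10.77, 10.76 and 10.68 on the log2 scale and the siH19-2 arrays 9.34, 9.34 and 9.35. Every siH19-2 array was below every NC array, and the siH19-2 arrays lay closer together than the NC arrays. The mean of the NC arrays was 10.74 ± 0.046 and that of the siH19-2 arrays 9.35 ± 0.007 (each with its SD, n = 3), a log2 fold change of -1.39 (standard error 0.037). On the linear scale 38.1% of the NC signal was left. It ranked 3 among the 39261 probe sets by the size of the downward difference. By the study's threshold of an unadjusted p under 0.05 and a log2 fold change below -1, 27 probe sets (0.0688% of those tested here) were lower, and SERPINB9 was the member inside it, which its choice by this threshold had fixed. The next member outside the threshold was SERPINB8 at -0.20. Leaving out 1 array at a time gave log2 fold changes of SERPINB9 from -1.42 to -1.38, and without siH19-2 replicate 3, the array that stood apart from its group, it was -1.40.

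**Figure D1:**
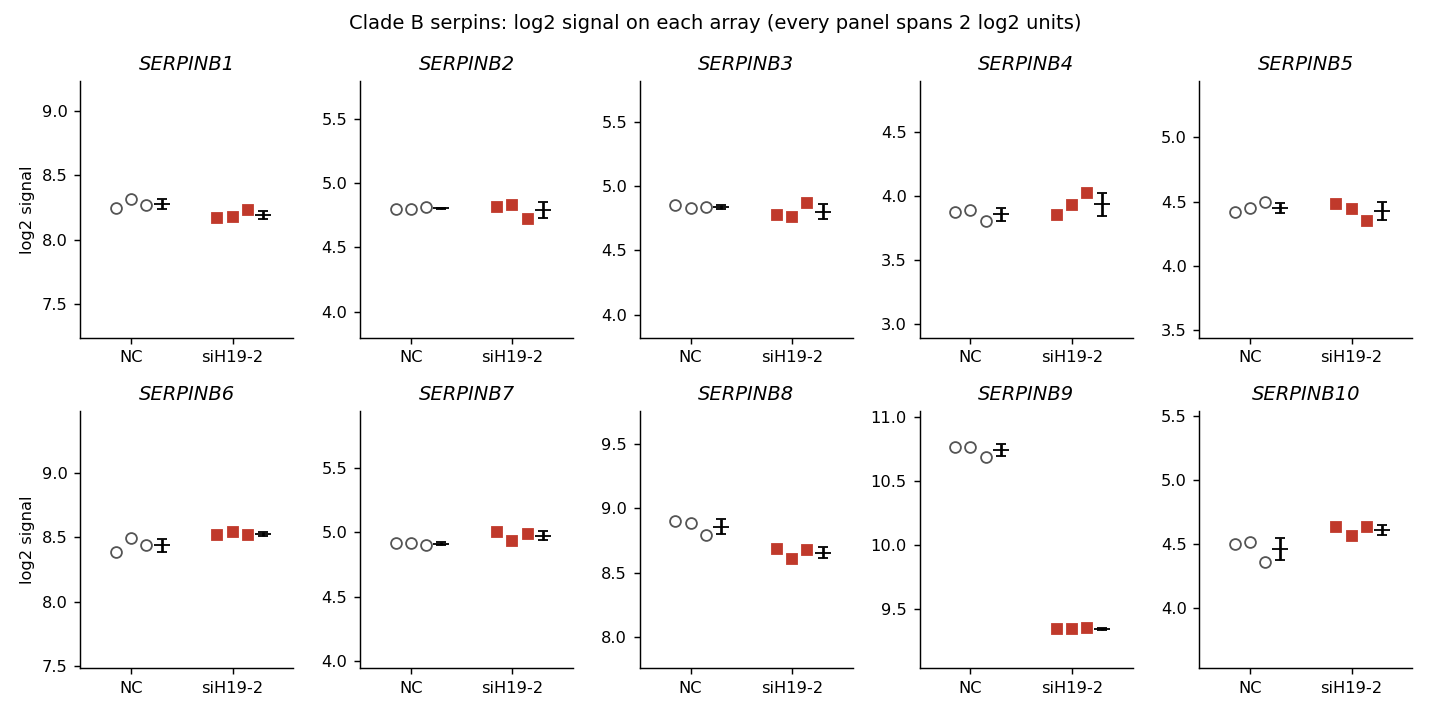
Log2 signal of the 10 clade B serpins on each array (vertical axis, 2 log2 units in every panel), with open circles for the 3 NC arrays, red squares for the 3 siH19-2 arrays and bars for the mean ± SD of each group. The SERPINB9 points separate from a mean of 10.74 in NC to 9.35 in siH19-2, while the groups of every other gene differ in their means by 0.203 at most.

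None of the other 9 members passed the test in either direction. With limma, 0 were lower and 0 were higher at an adjusted p under 0.05, beside 2.63% and 2.64% of all probe sets. At an unadjusted p under 0.05, 1 was lower (SERPINB8) and 1 was higher (SERPINB10), beside 8.25% lower and 12% higher of all probe sets, so 1 of 9 in each direction lies near the background. The methods' t-test called 0 after Benjamini-Hochberg adjustment. Their log2 fold changes ranged from -0.20 to 0.15, with a median of -0.015 beside 0.016 for all probe sets. For 2 of them (SERPINB1 and SERPINB8) every siH19-2 array was below every NC array, which held for 9.98% of all probe sets. For 3 (SERPINB6, SERPINB7 and SERPINB10) every siH19-2 array was above every NC array, which held for 18.3%. The groups overlapped for the remaining 4. SDs within a group ran from 0.006 to 0.087, and 3 of the 9, SERPINB1, SERPINB6 and SERPINB8, were brighter than the median of all probe sets.

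**Figure D2:**
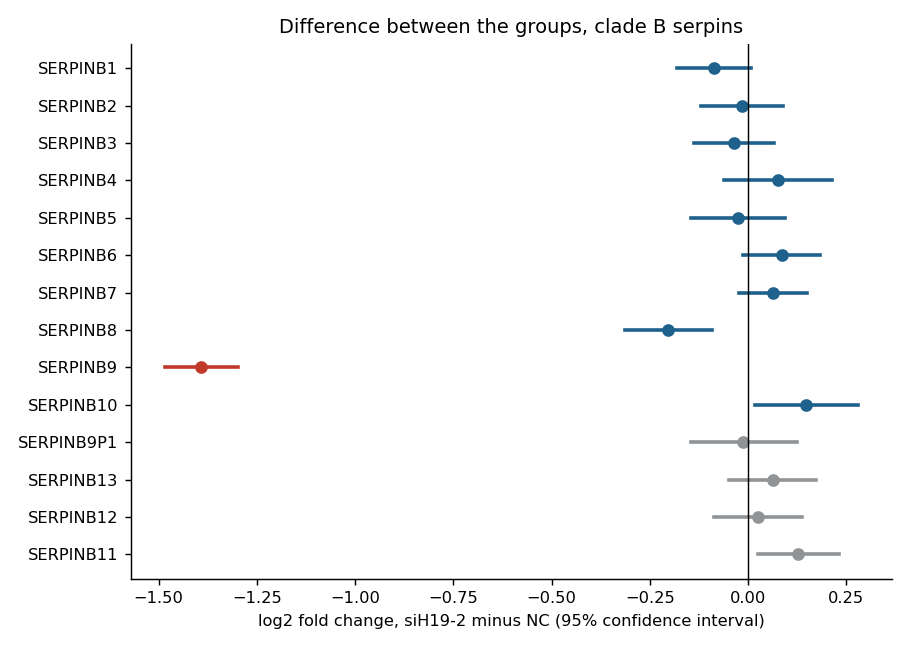
Log2 fold change siH19-2 minus NC of the 10 members (SERPINB9 in red, the other 9 in blue) and of the 4 further clade B rows on the array (grey), with bars for the 95% confidence interval from limma. SERPINB9 lies at -1.39, and the other 13 rows lie between -0.20 and 0.15.

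SERPINB8, the cytoplasmic inhibitor of the proprotein convertase furin, came nearest to SERPINB9 among the other members. Its log2 signal was 8.90, 8.88 and 8.79 in NC and 8.68, 8.61 and 8.68 in siH19-2, so the groups did not overlap. The difference was -0.20 (standard error 0.045, 95% confidence interval -0.31 to -0.09), which left 86.8% of the NC signal, with an adjusted p of 0.066 from limma. The call of SERPINB8 depended on the setting: its adjusted p was 0.015 when dim probe sets were left out of the fit (those below the median), 0.024 with an intensity trend and a robust prior, and 0.016 with ACTB made equal, where the fold change was -0.34. It was 0.085 by the methods' t-test and 0.093 to 0.20 when 1 array was left out. FURIN, its target, measured 8.07, 8.05 and 8.09 in NC and 8.26, 8.26 and 8.21 in siH19-2 on the log2 scale. FURIN thus lay higher in siH19-2 without overlap of the groups, with a log2 fold change of 0.17 and an adjusted p of 0.052 from limma. Making ACTB equal lowers this value by 0.13, as it does every log2 fold change, so most of the rise depends on the scaling.

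SERPINB1, an inhibitor of the serine proteases of neutrophil granules, had log2 signals of 8.25, 8.32 and 8.27 in NC and 8.17, 8.17 and 8.23 in siH19-2. These groups did not overlap either, but the difference of -0.088 (standard error 0.038) had a 95% confidence interval from -0.18 to 0.006 and an adjusted p of 0.27 from limma. With ACTB made equal it was -0.22 and passed the test (adjusted p = 0.024 from limma). Of the proteases that SERPINB1 is known to inhibit, neutrophil elastase (ELANE) had a log2 fold change of 0.014, proteinase 3 (PRTN3) of 0.083, cathepsin G (CTSG) of 0.068, chymase (CMA1) of 0.044 and granzyme H (GZMH) of 0.090. None of these 5 had an adjusted p below 0.30 from limma. They are products of myeloid and lymphoid cells, and a signal of their probe sets in this line is no evidence of a transcript.

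SERPINB6 inhibits thrombin, cathepsin G and kallikreins, and its loss causes a recessive hearing disorder in humans. It had log2 signals of 8.39, 8.49 and 8.44 in NC and 8.52, 8.55 and 8.52 in siH19-2. Each siH19-2 array was above each NC array, by 0.086 on average (standard error 0.040, 95% confidence interval -0.012 to 0.18, adjusted p = 0.30 from limma), a direction that turned to -0.048 with ACTB made equal. Its targets thrombin (F2) at 0.027 and KLK8 at 0.006 did not pass the test (adjusted p = 0.77 and 0.96 from limma). KLK5, a kallikrein of the skin, was at -0.12 without overlap of the groups (adjusted p = 0.18 from limma).

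SERPINB9 lies between SERPINB1 and SERPINB6 in the chromosome 6 cluster, and the genes around it were set beside it after the values of the members were seen. None of the 14 measured neighbours passed the test, beside 2.63% lower and 2.64% higher of all probe sets. SERPINB9 itself, chosen by its fall on these same arrays, lay below the genes on both sides. SERPINB9P1, a pseudogene derived from a SERPINB9-like gene, averaged 6.60 in NC and 6.59 in siH19-2 on the log2 scale, a difference of -0.012 (95% confidence interval -0.15 to 0.12). The antisense gene SERPINB9-AS1, which overlaps SERPINB9 on the opposite strand and is listed on the array under an older name, had log2 signals of 5.64, 5.54 and 5.58 in NC and 5.25, 5.40 and 5.43 in siH19-2. All siH19-2 arrays of this transcript were below all NC arrays, with a difference of -0.23 (standard error 0.061, unadjusted p = 0.0097, adjusted p = 0.11 from limma). Whether its probes share sequence with SERPINB9 was not tested. RIPK1, a kinase of cell death signalling beyond SERPINB6, differed by 0.009 (95% confidence interval -0.068 to 0.086).

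**Figure D3:**
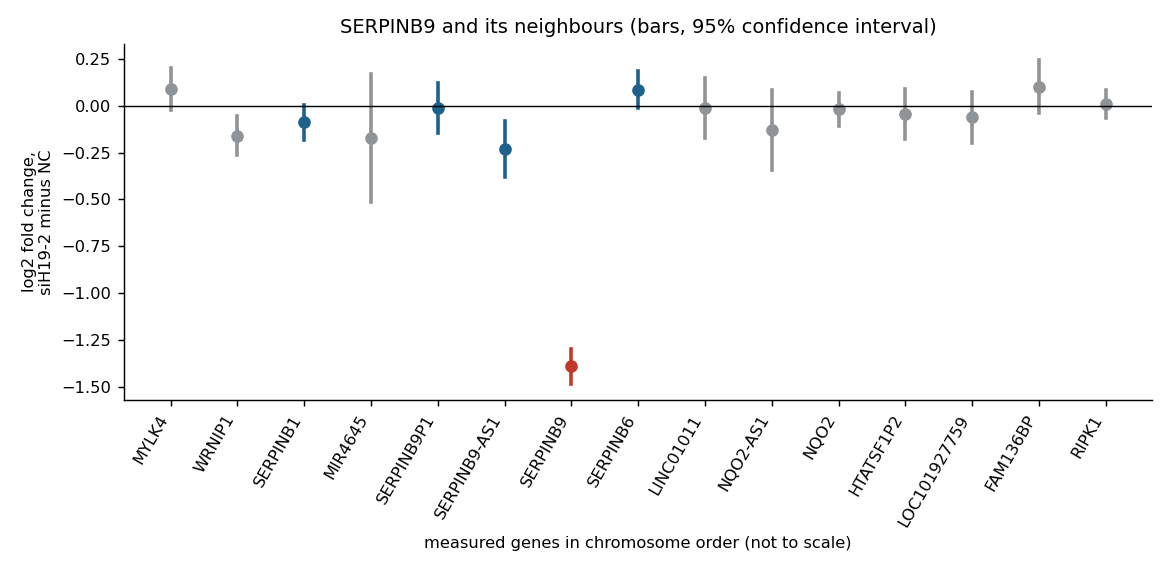
Log2 fold change siH19-2 minus NC (vertical axis, bars for the 95% confidence interval from limma) of SERPINB9 (red), clade B genes and transcripts around it (blue) and other neighbours (grey), in chromosome order and not to scale. SERPINB9 lies at -1.39 and each of the 14 neighbours between -0.23 and 0.10.

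SERPINB2, the plasminogen activator inhibitor type 2, inhibits urokinase (PLAU) and is the member that joins the clade to plasminogen activation. Its log2 signal was 4.80, 4.80 and 4.81 in NC and 4.82, 4.83 and 4.72 in siH19-2. The groups overlapped, and the difference of -0.015 (95% confidence interval -0.12 to 0.088) turned to 0.020 without siH19-2 replicate 3. PLAU itself fell. Its log2 signals were 10.17, 10.21 and 10.10 in NC and 9.49, 9.48 and 9.42 in siH19-2, without overlap, which means 61.9% of the NC signal remained. The fall of PLAU was -0.69 on the log2 scale (limma adjusted p = 0.0019, standard error 0.044), and it stayed below the threshold with each array left out in turn (adjusted p = 0.012 to 0.021). The urokinase receptor PLAUR fell by 0.58, from 9.13, 8.95 and 8.89 in NC to 8.45, 8.41 and 8.36 in siH19-2 (standard error 0.068, adjusted p = 0.011 from limma). The call of PLAUR was lost without NC replicate 2 (adjusted p = 0.051 from limma) or without siH19-2 replicate 2. SERPINE2, also known as protease nexin 1, an inhibitor of thrombin and urokinase from another serpin clade, rose by 0.28 (limma adjusted p = 0.036, standard error 0.050), but this call was lost with any 1 of the 6 arrays left out and by the methods' t-test. Of the 11 measured genes of the urokinase and plasminogen system, 2 were lower and 1 higher, beside 2.63% and 2.64% of all probe sets. At an unadjusted p under 0.05 from limma, 4 were lower and 2 higher, beside 8.25% and 12% of all probe sets. At the adjusted threshold 8 did not pass, and the median log2 fold change of the 11 was 0.004. Those 8 included tissue plasminogen activator (PLAT, 0.099) and plasminogen (PLG, 0.030).

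SERPINB3 and SERPINB4 are neighbouring, near-identical copies, known as squamous cell carcinoma antigens, whose products inhibit different proteases. Probes for one can bind transcripts of the other, so their values are uncertain as separate measurements. SERPINB3, an inhibitor of cysteine cathepsins, had log2 signals of 4.85, 4.83 and 4.83 in NC and 4.78, 4.76 and 4.87 in siH19-2, a difference of -0.037 with overlapping groups (95% confidence interval -0.14 to 0.065). SERPINB4, an inhibitor of cathepsin G and chymase, had 3.88, 3.89 and 3.80 in NC and 3.85, 3.93 and 4.02 in siH19-2. Its difference of 0.076, with overlapping groups, turned to -0.057 with ACTB made equal. The cathepsins that SERPINB3 inhibits were at 0.025 (CTSL), 0.12 (CTSK) and 0.048 (CTSS), and CTSV, a close relative of cathepsin L, was at -0.17, all without passing the test (adjusted p from 0.14 to 0.75 from limma).

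The last 3 members, SERPINB5, SERPINB7 and SERPINB10, lie in the chromosome 18 cluster and had probe sets dimmer than the median. SERPINB5, or maspin, a serpin of epithelia that does not inhibit proteases in the usual manner, had log2 signals of 4.42, 4.45 and 4.49 in NC and 4.48, 4.45 and 4.35 in siH19-2. The groups overlapped, and the difference of -0.026 turned to 0.012 without siH19-2 replicate 3. SERPINB7, a serpin of the epidermis that is mutated in a hereditary keratosis of palms and soles, had 4.92, 4.92 and 4.90 in NC and 5.01, 4.94 and 4.99 in siH19-2. All siH19-2 arrays of SERPINB7 were above all NC arrays by a small margin, a difference of 0.063 (adjusted p = 0.38 from limma) that turned to -0.070 with ACTB made equal. SERPINB10, also called bomapin, a serpin of blood-forming cells, had 4.51, 4.52 and 4.37 in NC and 4.63, 4.57 and 4.63 in siH19-2. Its groups did not overlap either, and its difference of 0.15 (standard error 0.053, 95% confidence interval 0.017 to 0.28) had an adjusted p of 0.20 from limma and shrank to 0.015 with ACTB made equal.

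The array held 4 further rows of the clade. None of them passed the test with limma, beside 2.63% lower and 2.64% higher of all probe sets. SERPINB11 was at 0.13 with groups that did not overlap (unadjusted p = 0.023, adjusted p = 0.17 from limma). SERPINB12 and SERPINB13, the latter a serpin of stratified epithelia, were at 0.025 and 0.062 with overlapping groups. The fourth was the pseudogene SERPINB9P1.

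Beyond clade B, 23 genes and pseudogenes of other serpin clades were measured. Of these, 2 were higher and 0 lower at an adjusted p under 0.05 from limma, beside 2.64% and 2.63% of all probe sets. At an unadjusted p under 0.05 these counts were 6 and 0, beside 12% and 8.25% of all probe sets. Next to SERPINE2, SERPINA3, the acute-phase antichymotrypsin, rose by 0.17 (limma adjusted p = 0.038, standard error 0.031), with log2 signals of 9.39, 9.42 and 9.42 in NC and of 9.58, 9.57 and 9.60 in siH19-2. The call of SERPINA3 was lost with any 1 array left out, with cyclic loess (adjusted p = 0.052 from limma) and with ACTB made equal, and that of SERPINE2 also with ACTB made equal. The median of the 23 was 0.066.

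Turning to the proteases that clade B serpins inhibit, 1 of 19 was lower (PLAU) and 0 were higher with limma, beside 2.63% and 2.64% of all probe sets. At an unadjusted p under 0.05 these counts were 3 lower and 4 higher, beside 8.25% and 12% of all probe sets, and the methods' t-test called 1 higher. The median over the list was 0.044. Granzyme B itself (GZMB), the target of SERPINB9, had log2 signals of 6.58, 6.63 and 6.60 in NC and 6.65, 6.77 and 6.73 in siH19-2. The groups did not overlap, with a difference of 0.11 (adjusted p = 0.22 from limma). Caspase 1 (CASP1), the inflammatory protease that SERPINB9 can also inhibit, was at -0.067 with overlapping groups, and granzyme M (GZMM), which cleaves SERPINB9, at 0.059. For GZMB and GZMM, as for the targets of SERPINB1, a signal of the probe set in this line is no evidence of a transcript.

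Granzyme B acts in a target cell after uptake and release by perforin, by cutting BID, caspases and nuclear proteins. Of 25 genes for this entry and for these substrates, 1 was lower and 3 were higher at an adjusted p under 0.05 from limma, beside 2.63% and 2.64% of all probe sets. At an unadjusted p under 0.05 these counts were 4 and 9, beside 8.25% and 12% of all probe sets, and the median was 0.030. All 25 were brighter than the median of all probe sets, so the shares over all probe sets are not a like background. Among the 19630 brighter probe sets fitted alone, 1730 were lower and 2328 higher, with 4 and 6 of the list. XIAP, an inhibitor of the caspases that granzyme B activates, fell by 0.39 (limma adjusted p = 0.0069, standard error 0.040), from 7.74, 7.78 and 7.81 in NC to 7.40, 7.34 and 7.41 in siH19-2, and stayed below the threshold with each array left out. IGF2R, the mannose 6-phosphate receptor that can take up granzyme B, rose by 0.35 (adjusted p = 0.012 from limma), from 8.82, 8.83 and 8.83 to 9.19, 9.10 and 9.23. APAF1, the scaffold that activates caspase 9, rose by 0.35 (adjusted p = 0.018), and NUMA1, a spindle protein that granzyme B cleaves, rose by 0.25 (adjusted p = 0.013 from limma). The calls of IGF2R and APAF1 were lost without NC replicate 1, 2 or 3 or siH19-2 replicate 1, with an adjusted p up to 0.070 and 0.083. That of NUMA1 was lost without any 1 array other than siH19-2 replicate 3, and the calls of APAF1 and NUMA1 also with ACTB made equal. The direct substrate BID (-0.098) and perforin (PRF1, -0.009) did not pass the test. A signal of the PRF1 probe set in this line is likewise no evidence of a transcript.

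**Figure D4:**
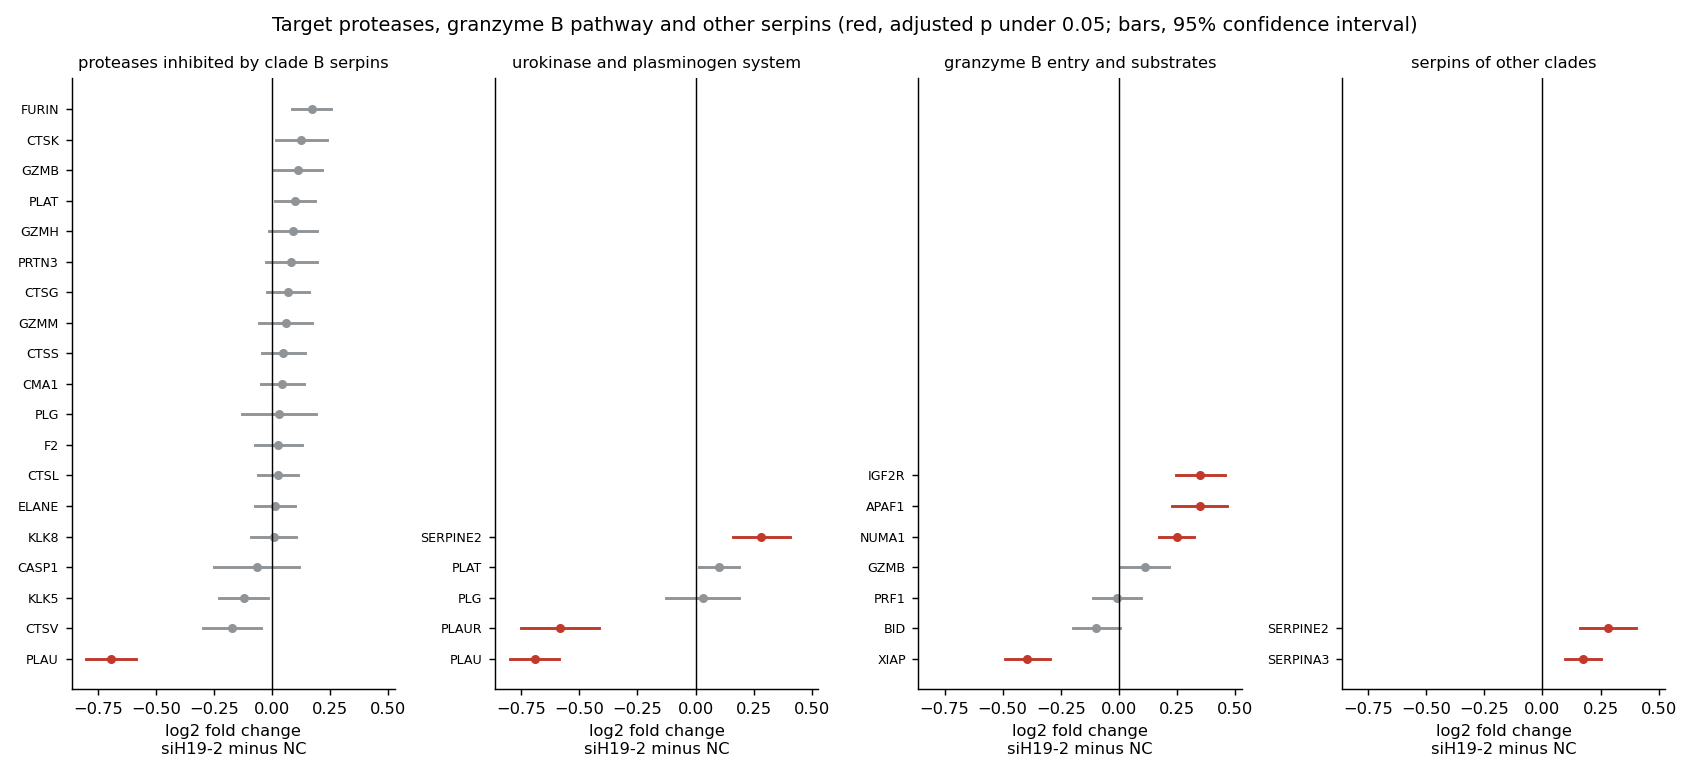
Log2 fold change siH19-2 minus NC (horizontal axis, bars for the 95% confidence interval) of the genes named in the text among the proteases inhibited by clade B serpins, the urokinase and plasminogen system, granzyme B entry and its substrates and the serpins of other clades, in red where the adjusted p from limma was under 0.05. PLAU at -0.69 and PLAUR at -0.58 lie farthest to the left, and the highest value is 0.35, for IGF2R.

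Markers of the other cells that are known for clade B serpins were read beside the 2.63% of all probe sets that were lower and the 2.64% that were higher. Of 15 leukocyte markers, which cover the cytotoxic and myeloid cells known for SERPINB9, SERPINB1 and SERPINB10, 1 was lower and 0 higher, and their summed log2 signals ran from 86.9 to 87.4 in NC and from 86.7 to 87.3 in siH19-2, which overlapped. PTPRC, the marker of all leukocytes, was dimmer than the median of all probe sets, at 4.53 in NC and 4.59 in siH19-2. The lower one was LYZ, or lysozyme (-0.26, adjusted p = 0.023 from limma), whose call held only without siH19-2 replicate 3 when single arrays were left out. Of 10 squamous markers, which cover the tissue known for SERPINB3, SERPINB4, SERPINB5 and SERPINB7, 0 passed with limma in either direction, 1 was lower at an unadjusted p under 0.05, and the sums were 62.2 to 63.0 in NC and 61.7 to 62.6 in siH19-2. Of 9 epithelial and mesenchymal markers 1 was lower, KRT19 (-0.40, adjusted p = 0.032 from limma, lost by the methods' t-test and without any 1 array other than siH19-2 replicate 3). Their sums of 73.9 to 74.2 in NC and 72.7 to 73.7 in siH19-2 did not overlap, but each sum adds markers of both kinds and so describes neither. At an unadjusted p under 0.05, 3 of these 9 were lower and 0 higher, beside 8.25% and 12% of all probe sets. The part of these differences in those of the serpins was not tested, and in bulk RNA fewer cells of a type and less RNA per cell cannot be told apart.

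Finally, the profile of SERPINB9 over the 6 arrays, taken as the log2 signal minus the mean of the gene, was compared with that of all other probe sets by the root mean square difference. The 5 nearest were MIGA1 (0.034), MSMO1 (0.071), CFL2 (0.073), UHMK1 (0.080) and VTA1 (0.086), with log2 fold changes of -1.38, -1.30, -1.52, -1.25 and -1.48. In MIGA1, a mitochondrial outer membrane protein, the profile values were 0.712, 0.659 and 0.695 in NC and -0.68, -0.695 and -0.691 in siH19-2, beside 0.725, 0.719 and 0.643 in NC and -0.699, -0.699 and -0.688 in siH19-2 for SERPINB9. In MSMO1, a sterol oxidase, siH19-2 replicate 3 lay above the other siH19-2 arrays, at -0.54, whereas SERPINB9 had no such array. Genes with nearly the same difference between the groups come out nearest by this measure, since the difference makes up most of each profile. MIGA1 and UHMK1 were, like SERPINB9, candidate genes that the study chose by their lower signal on these same arrays. Their likeness to SERPINB9 is therefore no separate result.

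**Figure D5:**
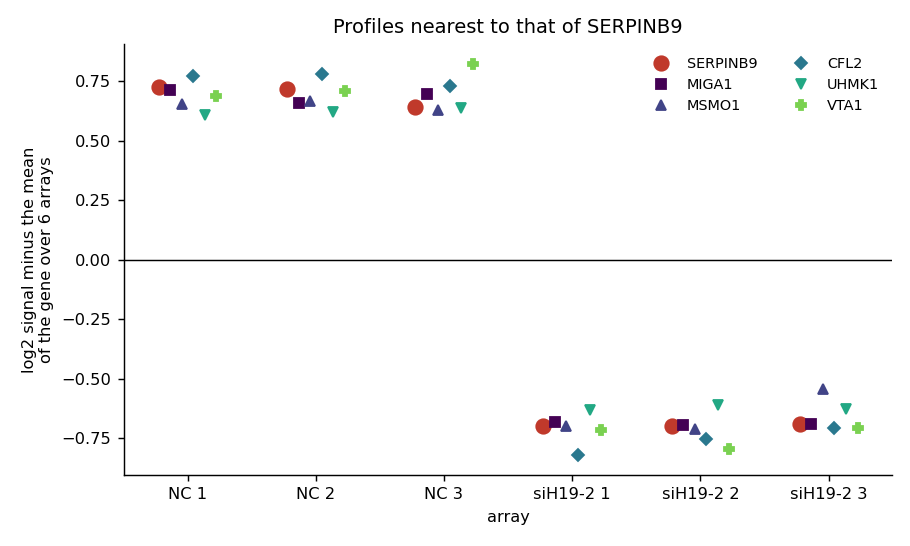
Log2 signal minus the mean of the gene over 6 arrays (vertical axis) on each array (horizontal axis) for SERPINB9 and the 5 genes with the nearest profile. All 6 genes lie above 0.6 on the NC arrays and below -0.5 on the siH19-2 arrays.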

How the data were processed

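Gene expression was measured on 6 Clariom D arrays of MIA-PaCa2 cells, 3 in NC and 3 in siH19-2, grouped by the sample labels. Each array has a column of log2 signals, which the authors normalized between arrays before they were deposited. The methods name limma for the normalization and the statistics section names JMP, so which of them gave the values is uncertain. How background was corrected and which annotation release was used is not given in the sources used here. A table deposited by the authors also holds log2 group means and their difference, standardized means, a test statistic and a significance index as scores, the p-value, the adjusted p-value and the −log10 of the p-value. The gene names were taken from it and the values of the comparison were not used. The design of the tests had not foreseen that this table holds no values per array, which came from the series' value table.

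Of 39334 probe sets, the 39261 with a gene name were compared across all genes with limma 3.58.1 under R 4.3.3. The functions lmFit and eBayes were used, with degrees of freedom of 4 (residual) and 1.92 (prior), and two-sided p-values were adjusted by Benjamini-Hochberg at a threshold of 0.05. No filter was applied. Precision is limited by the number of arrays. An exact permutation test of 3 against 3 arrays allows no p below 0.1. The fit was tested on simulated data. Levels of different probe sets do not measure amounts. Brightness relative to the median of all probe sets and summed marker signals describe the probe sets only. The sources name no genome build for the array. The reference (GRCh38.p14) gave the promoter windows and the order of the neighbours.

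The members, the 8 gene lists and the neighbours were chosen with earlier results of these data known. The genes named are the 10 members, every other clade B row, H19, ACTB, up to 8 genes with the smallest adjusted p under 0.05 in each list, the target proteases, and the 5 genes with the nearest profile to SERPINB9. Further genes (the neighbours, GZMM, GZMH, KLK5, BID, PRF1, PTPRC, VIM, EPCAM, CDH1, CDH2, KRT7, KRT8, KRT18 and S100A4) were chosen once their values had been seen. Some genes of the lists entered the counts and are not reported by name here. As alternatives, the following were tried: cyclic loess, ACTB made equal in all arrays, probe sets brighter than the median, and an intensity trend with a robust prior. Further ones were the methods' t-test with Benjamini-Hochberg adjustment, Bonferroni-Holm adjustment of the limma p-values, a block for the replicate number, and the omission of each array in turn. The pairing of the t-test with Benjamini-Hochberg is not that of the methods, which correct it by Bonferroni-Holm.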

Additional observations from a re-analysis of the deposited data

How the results depend on the processing

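The log2 fold change of SERPINB9 moved beyond the spread of its replicates only with ACTB made equal, to -1.52. The 9 other members had 0 calls higher under every alternative and 0 calls lower except 2 with ACTB made equal (SERPINB1 and SERPINB8) and 1, SERPINB8, among the brighter probe sets and with the trend and robust prior. Signs turned with ACTB made equal for SERPINB4 (-0.057), SERPINB6 (-0.048) and SERPINB7 (-0.070), and without siH19-2 replicate 3 for SERPINB2 (0.020, range with 1 array left out -0.037 to 0.020) and SERPINB5 (0.012, range -0.055 to 0.012). ACTB made equal moved the median of all probe sets to -0.117 and cyclic loess to -0.002. These shifts follow from the scaling itself. The cause of the other changes was not tested.

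Of the 39261 probe sets, 1032 were lower and 1035 higher in the main fit. These numbers became 4119 and 297 with ACTB made equal and 37 and 6 with Holm adjustment. With 1 array left out they were 292 to 648 and 172 to 430. Cyclic loess gave 1131 and 783, the trend and robust prior 1525 and 1924, and the methods' t-test 869 and 1320. The brighter fit gave 1730 and 2328, but out of 19630 tested and not out of 39261. Each list count below has the numbers of its own setting as background. Proteases lower (1) became 3 with ACTB made equal, 2 among the brighter probe sets and 0 with Holm adjustment, and proteases higher (0) became 1 among the brighter probe sets, with the trend and robust prior and by the t-test. Genes of the granzyme B list lower (1) became 3 with cyclic loess, 8 with ACTB made equal, 4 among the brighter probe sets, 3 with the trend and robust prior, 3 by the t-test and 0 with Holm adjustment. Those higher (3) became 1 with ACTB made equal, 6 among the brighter probe sets, 5 with the trend and robust prior, 0 with Holm adjustment and 0 to 3 with 1 array left out (0 without NC replicate 1, 2 or 3 or siH19-2 replicate 1). Serpins of other clades lower (0) became 1 with ACTB made equal, and those higher (2) became 1 with cyclic loess, 0 with ACTB made equal, 4 among the brighter probe sets, 4 with the trend and robust prior, 0 with Holm adjustment and 0 to 1 with 1 array left out. Genes of the urokinase system lower (2) became 4 with ACTB made equal, 4 among the brighter probe sets, 0 with Holm adjustment and 1 to 2 with 1 array left out, and those higher (1) became 0 with ACTB made equal, 0 by the t-test, 0 with Holm adjustment and 0 to 1 with 1 array left out.

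For arrays with the same replicate number, the deviations from the group means correlated at 0.006, 0.010 and 0.005. Whether such arrays shared more than the number was not tested. With the number as a replicate block, 62 probe sets were lower and 12 higher, 0 genes of the granzyme B list were lower and 0 higher, 0 serpins of other clades were higher, 1 gene of the urokinase system was lower and 0 were higher.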
